A study of Mus musculus with 6 samples.

Results

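The 10 genes described here form the core of the circadian clock and its best known output: Arntl, Clock, Per1, Per2, Per3, Cry1, Cry2, Nr1d1, Nr1d2 and Dbp. They were taken by name and found on the arrays through the transcript accession of each probe, which gave 11 probes for the 10 genes, out of 27235 probes for 20660 genes matched in the same way. E18.5 fetal mammary cells (embryonic day 18.5) were compared with adult basal mammary cells from 8–12-wk females, with 3 biological replicates of each population and 1 one-color Agilent array per replicate. All samples came from female C57Bl6J mice with no genetic change or treatment named. Fetal cells were sorted as CD31-CD45-Ter119-EpCAM++CD49f+ after a short digestion, whereas for adult basal cells, which were digested overnight, the gate was CD31-CD45-Ter119-BP-1-EpCAM+CD49f+. Age, sort gate and length of digestion changed together and cannot be told apart. The hour of day at which tissue was taken is not given in the sources used here, and neither is how many animals went into a sample. All values below are normalized log2 signals, in which 1 unit is a 2-fold difference, and differences are fetal minus adult basal, so a negative value is lower in fetal cells. The share of probes well above background ran from 76.4% to 83.3% over the arrays, and each probe of the 10 genes met that mark on all 6.

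The circadian clock is a feedback loop of transcription that runs through the day in most cells of the body. ARNTL (also called BMAL1) and CLOCK bind together to E-boxes and switch on the Per and Cry genes, whose proteins return to the nucleus and block ARNTL and CLOCK. A second loop is formed by the nuclear receptors REV-ERB alpha and beta (Nr1d1 and Nr1d2), which repress Arntl, and the ROR receptors, which activate it from the same DNA element. DBP is a D-box binding factor whose gene is a direct target of ARNTL and CLOCK. In adult tissues most of these transcripts rise and fall over the day, and rhythms in fetal tissues are known to mature late in development and after birth.

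Motifs through which clock genes are known to regulate each other were looked for near the starts of these genes. Only exact matches were counted, elements farther from a start were not searched, and whether a match is bound was not tested. RefSeq windows of GRCm38.p6, which run from 250 bases before to 50 bases after an annotated start, were listed for 9 of the 10 genes (not Per2). They were searched on both strands for CACGTG (the E-box), CACGTT (an E-box variant), TTATGTAA and TTACGTAA (D-boxes), TAGGTCA (the core of the ROR and REV-ERB element) and TGACGTCA (the cAMP response element), and no matches overlapped each other. The stretches below are the matches with their surroundings in 6 of the 10 genes and in Ciart, a repressor of ARNTL and CLOCK that is described further on and is shown, with its values known, because it had the largest difference of the wider clock list. Capitals mark the match, and AACGTG is CACGTT read on the other strand. The stretches lie at chr3:95882237-95882374 (minus strand) for Ciart, chr10:85185079-85185163 (minus) for Cry1, chr11:69098753-69098818 (plus) for Per1, chr4:151044786-151044900 (minus) for Per3, chr11:98775378-98775435 (minus) for Nr1d1, chr2:92434200-92434265 (minus) for Cry2 and chr7:113207530-113207559 (plus) for Arntl.
Ciart: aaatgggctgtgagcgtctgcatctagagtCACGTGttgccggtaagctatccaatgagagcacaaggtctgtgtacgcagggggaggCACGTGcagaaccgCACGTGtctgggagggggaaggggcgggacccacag
Cry1: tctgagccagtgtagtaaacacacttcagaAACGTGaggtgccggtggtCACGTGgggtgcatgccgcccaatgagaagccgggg
Per1: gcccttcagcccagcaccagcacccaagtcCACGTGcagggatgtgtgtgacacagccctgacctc
Per3: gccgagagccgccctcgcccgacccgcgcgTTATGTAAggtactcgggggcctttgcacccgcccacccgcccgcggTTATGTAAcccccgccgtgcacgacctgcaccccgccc
Nr1d1: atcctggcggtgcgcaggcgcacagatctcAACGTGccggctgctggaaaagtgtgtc
Cry2: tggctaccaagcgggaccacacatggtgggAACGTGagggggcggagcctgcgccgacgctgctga
Arntl: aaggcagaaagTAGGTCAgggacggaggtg

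Ciart held 3 E-boxes, whose first bases lay 116, 58 and 44 bases before the start, and Cry1 held an E-box at 60 and a variant at 79 bases before it. Per1 held 1 E-box 166 bases before the first of its listed starts. The Per3 window held 2 D-boxes, at 205 and 158 bases before the start, Nr1d1 a variant E-box at 28 and Cry2 one at 166 bases before it. In Arntl the ROR and REV-ERB core lay 30 bases after the second of its listed starts. No match was found in the windows of Clock, Nr1d2 and Dbp. Of all 32851 windows of this length, 7.15% held CACGTG, 4.68% CACGTT, 0.938% TTATGTAA, 0.119% TTACGTAA, 2.61% TAGGTCA and 1.79% TGACGTCA, and neither TTACGTAA nor TGACGTCA was found in a window of the 10 genes. In the wider clock list, 16 genes had a listed window, some of them more than 1, whereas the shares above are of windows. CACGTG was found in 3 of the 16 genes (Ciart, Bhlhe41 and Tef), and CACGTT (Rorb), TTATGTAA (Timeless), TAGGTCA (Nfil3) and TGACGTCA (Hlf) in 1 each. Genes with a match did not share a direction. Timeless and Hlf were higher in fetal cells, Ciart, Bhlhe41, Nfil3 and Rorb were lower, and the arrays overlapped for Tef. Of the genes with CACGTG, Ciart, Bhlhe41 and Cry1 were lower in fetal cells, and the arrays overlapped for Tef and Per1. The fetal mean of Per1 was the higher. Whether the matches bear on these differences was not tested.

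**Figure D1:**
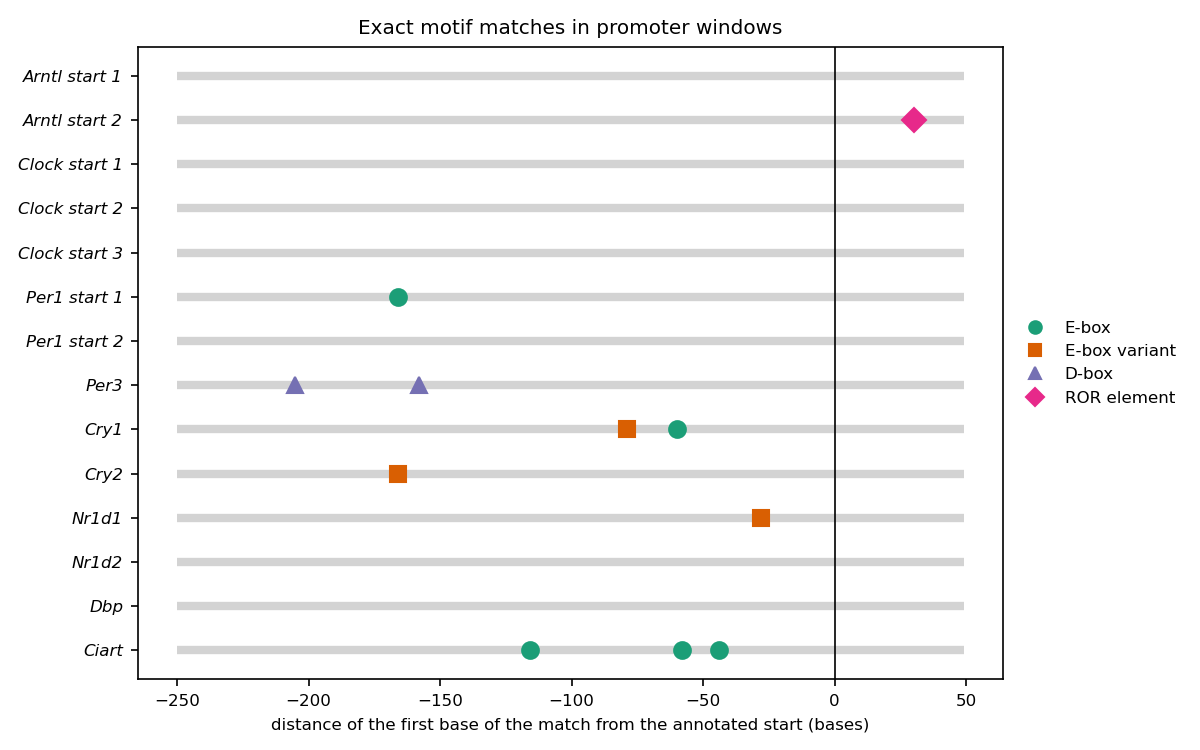
Exact matches of the motifs in the promoter windows of the clock genes and Ciart, plotted by the distance of the first base of the match from the annotated start (x axis, bases). Grey bars are the 300 bases searched for each listed start; Ciart has 3 E-boxes within 116 bases of its start, and the windows of Clock, Nr1d2 and Dbp have no match.

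Across the 10 genes, 9 had a lower mean in fetal cells than in adult basal cells, Per1 being the exception. Of all tested probes, 51.8% had the higher mean in adult basal cells. With limma and the limits of the study (Holm-adjusted p of at most 0.05 and at least a 2-fold difference), 0 of the 10 were called in either direction, where 5.18% of the 20445 tested probes were called higher in adult basal cells and 5.92% higher in fetal cells. At an unadjusted p under 0.05, 7 of the 10 passed, against 64.7% of all tested probes. With Benjamini-Hochberg adjustment and the same fold limit, 6 of the 10 were higher in adult basal cells (Arntl, Clock, Per2, Nr1d1, Nr1d2 and Dbp) and 0 were higher in fetal cells, where 14.0% and 16% of all tested probes were. That count was 3 without adult basal replicate 2, where Clock, Nr1d2 and Dbp were no longer called, and 7 without adult basal replicate 1, where Cry1 was added. The median difference of the 10 genes was -1.08, and that of all tested probes -0.033. Adult basal arrays all lay above all fetal arrays for 7 of the 10 genes, which held for 35.0% of all tested probes; the opposite order held for 0 of the 10 genes and 34.1% of all tested probes. For a single gene the exact permutation test of 3 against 3 arrays, 2-sided, cannot go below p = 0.1. In bulk RNA, fewer cells with a transcript and less of it in each cell cannot be told apart.

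**Figure D2:**
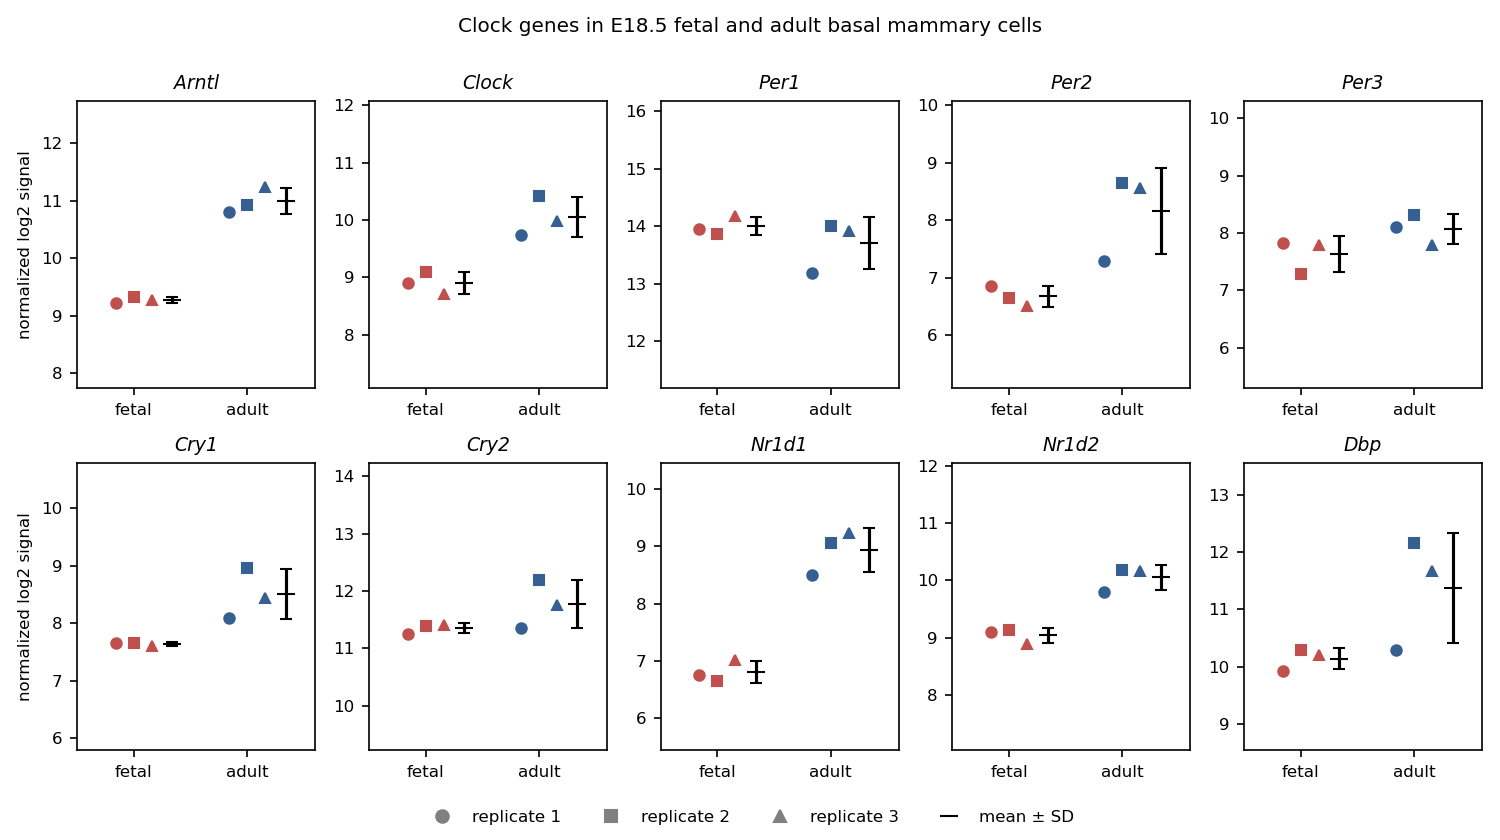
Normalized log2 signal (y axis, the same span of log2 units in each panel) of each clock gene on the 3 E18.5 fetal and 3 adult basal arrays, with the replicate by symbol and the mean ± SD in black. Arntl and Nr1d1 are clearly apart between the populations, Per1, Per3 and Cry2 overlap, and for Dbp adult basal replicate 1, at 10.29, lies beside the fetal arrays.

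The activators Arntl and Clock were both lower in fetal cells. Arntl, which encodes the partner that CLOCK needs to bind DNA, read 9.22, 9.32 and 9.27 in fetal and 10.80, 10.93 and 11.24 in adult basal cells. Its fetal values lay within 0.10 of each other and the populations were far apart. The difference was -1.72 (SE 0.13, 95% interval -2.04 to -1.41), or 3.30-fold, with a Holm-adjusted p of 0.058 and a Benjamini-Hochberg adjusted p of 2.8e-05. It fell just outside the Holm limit here and passed it under several other ways of processing the arrays, with adjusted p-values given in the closing section. Clock, a histone acetyltransferase as well as a DNA-binding factor, read 8.90, 9.10 and 8.72 in fetal and 9.74, 10.42 and 9.99 in adult basal cells. The populations did not overlap, and the difference was -1.15 (SE 0.19; Benjamini-Hochberg adjusted p = 0.0014, Holm 1).

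Among the repressors, Per2 and Cry1 were lower in fetal cells without overlap, and Per1, Per3 and Cry2 overlapped. Per2, a scaffold of the repressor complex, read 6.86, 6.65 and 6.50 in fetal and 7.29, 8.64 and 8.55 in adult basal cells. Adult basal replicate 1 lay much nearer to the fetal arrays than the other adult basal arrays did. The difference was -1.49 (SE 0.35; Benjamini-Hochberg adjusted p = 0.0072). Cry1, the stronger of the cryptochrome repressors, read 7.66, 7.66 and 7.60 in fetal and 8.10, 8.97 and 8.44 in adult basal cells. Its difference of -0.86 (SE 0.21; Benjamini-Hochberg adjusted p = 0.0087) stayed under the 2-fold limit. Without adult basal replicate 1 it was -1.07 (Benjamini-Hochberg adjusted p = 0.0022), past that limit, and without adult basal replicate 2 it was -0.63. Cry1 passed Benjamini-Hochberg adjustment and the fold limit under only 1 of the 19 alternatives.

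Per1, the period gene that is also induced directly by cAMP and glucocorticoid signalling, read 13.96, 13.87 and 14.17 in fetal and 13.18, 14.01 and 13.92 in adult basal cells. Adult basal replicate 1 alone lay below the fetal range. The difference of 0.30 (SE 0.22) had a 95% interval of -0.23 to 0.82. It was 0.036 without adult basal replicate 1 and 0.45 without adult basal replicate 2. Per3, which is not required for rhythms on its own, read 7.83, 7.28 and 7.79 in fetal and 8.10, 8.31 and 7.79 in adult basal cells, a difference of -0.43 (95% interval -0.89 to 0.027). It was -0.26 without fetal replicate 2 and -0.57 without adult basal replicate 3, where its Benjamini-Hochberg adjusted p in limma was 0.047 in place of 0.093. Cry2 read 11.25, 11.40 and 11.41 in fetal and 11.36, 12.19 and 11.76 in adult basal cells. Its difference of -0.42 had a 95% interval of -0.90 to 0.064, and it was -0.21 without adult basal replicate 2 and -0.62 without adult basal replicate 1, where its Benjamini-Hochberg adjusted p in limma was 0.0148 in place of 0.116. With slide as a block the Cry2 difference was -0.55 (Benjamini-Hochberg adjusted p = 0.0316). For Per1, Per3 and Cry2 a 2-fold difference lay outside the interval of the fit over all arrays, and these arrays did not settle whether there was a smaller one.

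The nuclear receptors of the second loop included the largest difference among the 10 genes. Nr1d1 (REV-ERB alpha) read 6.75, 6.66 and 7.02 in fetal and 8.50, 9.06 and 9.23 in adult basal cells. The difference was -2.12 (SE 0.20, 95% interval -2.60 to -1.64), or 4.34-fold, with a Holm-adjusted p of 0.23 and a Benjamini-Hochberg adjusted p of 8.1e-05. Nr1d2 (REV-ERB beta), which overlaps with Nr1d1 in function, read 9.10, 9.13 and 8.89 in fetal and 9.80, 10.18 and 10.17 in adult basal cells. Every adult basal array lay above every fetal array, with a difference of -1.01 (SE 0.14; Benjamini-Hochberg adjusted p = 5.5e-04) that lay just past the 2-fold limit. It fell short of that limit under 5 of the 19 alternatives: with normexp background correction (-0.92), with an offset of 16 before log2 (-0.99), and without fetal replicate 3 (-0.94), adult basal replicate 2 (-0.95) or adult basal replicate 3 (-0.95). The repressor Nr1d1 and its target Arntl were thus both lower in fetal cells.

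Dbp was measured by 2 probes and was the most variable of the 10 genes in adult basal cells. Its brighter probe (A_55_P2032079) read 9.93, 10.29 and 10.20 in fetal and 10.29, 12.15 and 11.67 in adult basal cells. Adult basal replicate 1 barely cleared the highest fetal array, whereas the other adult basal arrays were well above. The difference was -1.23 (SE 0.43; Benjamini-Hochberg adjusted p = 0.041). Its Benjamini-Hochberg call was lost under 8 of the 19 alternatives, which are listed in the closing section. The other probe (A_55_P2032081) read 9.42, 9.61 and 9.73 in fetal and 10.34, 12.32 and 11.83 in adult basal cells. It gave the same order of the adult basal arrays and a difference of -1.91 (SE 0.46; Benjamini-Hochberg adjusted p = 0.0083). The difference of the brighter probe was -0.84 without adult basal replicate 2 and -1.77 without adult basal replicate 1.

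The adult basal replicates differed from each other in most of the 10 genes in the same way. Adult basal replicate 1 was the lowest of the adult basal arrays for 9 of the 10, all but Per3, where it was the lowest for 29.4% of all tested probes. Adult basal replicate 2 was the highest for 8 of the 10, and for 33.2% of all tested probes. It was also the lowest for 39.9% of all tested probes, and its correlations over probes with replicates 1 and 3 were 0.983 and 0.981, against 0.990 between those arrays. Replicate 1 lay below the mean of the other adult basal arrays over the 10 genes (median difference -0.61), where the median over all tested probes was 0.022 and the median size 0.18. The gap was -1.62 for Dbp, -1.31 for Per2, -0.78 for Per1 and -0.64 for Nr1d1, and -0.29 for Arntl. In the fetal cells no replicate stood apart, being the lowest for 3, 3 and 4 of the 10 genes. The median SD over replicates was 0.40 in adult basal and 0.17 in fetal cells for the 10 genes, and 0.18 and 0.12 for all tested probes. The SD was larger in adult basal cells for 9 of the 10 genes. It was also larger there for 16 of the 21 tested genes of the wider clock list. The share of all tested probes with that order was not computed. These are descriptions of 3 arrays per population with no test.

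**Figure D3:**
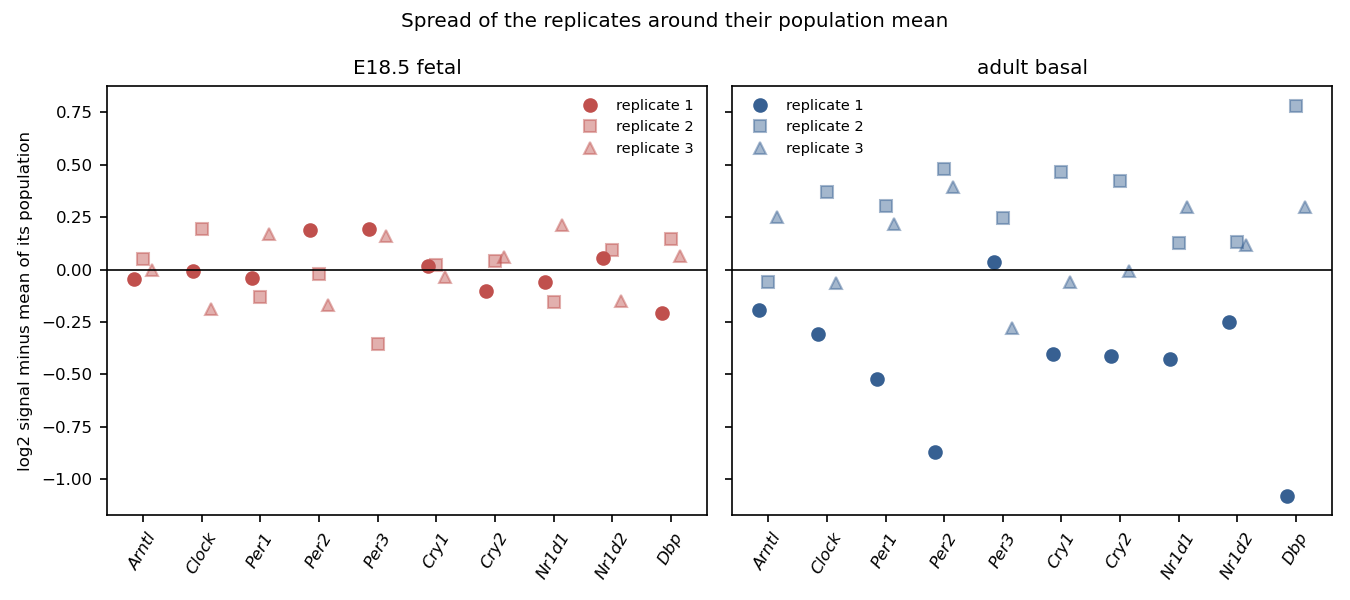
Log2 signal of each clock gene minus the mean of its own population (y axis), for the 3 fetal arrays (left) and the 3 adult basal arrays (right), with replicate 1 in full color. Adult basal replicate 1 is the lowest of the adult basal arrays for all but Per3, with Dbp at -1.62 relative to the mean of the other adult basal arrays, and the fetal arrays spread less.

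The arrays lay on 2 slides, the first with fetal replicate 1 and adult basal replicates 1 and 3 and the second with the other arrays. The same 9 genes were lower in fetal cells on each slide taken alone. The share of all tested probes with that order on each slide was not computed. Arntl differed by -1.80 on the first slide and -1.64 on the second, and Nr1d1 by -2.11 and -2.22. Dbp differed by -1.05 and -1.91, Per2 by -1.06 and -2.06 and Cry1 by -0.61 and -1.34, whereas Per1 was higher in fetal cells by 0.41 and by 0.011. The gaps for Dbp, Per2 and Cry1 were larger on the second slide. Its only adult basal array was replicate 2, the highest adult basal array for 8 of the 10 genes. The gaps were also larger there for Clock (-0.97 and -1.51), Per3 (-0.12 and -0.77), Cry2 (-0.31 and -0.79) and Nr1d2 (-0.89 and -1.17). The parts of adult basal replicates 1 and 2 in this were not told apart. When the fit included slide as a block, Arntl differed by -1.72, Nr1d1 by -2.16 and Dbp by -1.48.

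The wider clock list held 23 further genes, of which 21 passed the filter on low signal. With Holm adjustment and the fold limit, 2 of them were higher in adult basal cells (Ciart and Nampt) and 1 in fetal cells (Timeless), beside 5.18% and 5.92% of all tested probes. With Benjamini-Hochberg adjustment and the fold limit, 6 of the 21 were higher in adult basal cells and 4 in fetal cells, beside 14.0% and 16% of all tested probes. The median difference of the 21 genes was -0.21, and adult and fetal arrays did not overlap for 13 of them, 8 with adult basal and 5 with fetal arrays above, where these orders held for 35.0% and 34.1% of all tested probes. Adult basal replicate 1 was the lowest adult basal array for 13 of the 21.

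**Figure D4:**
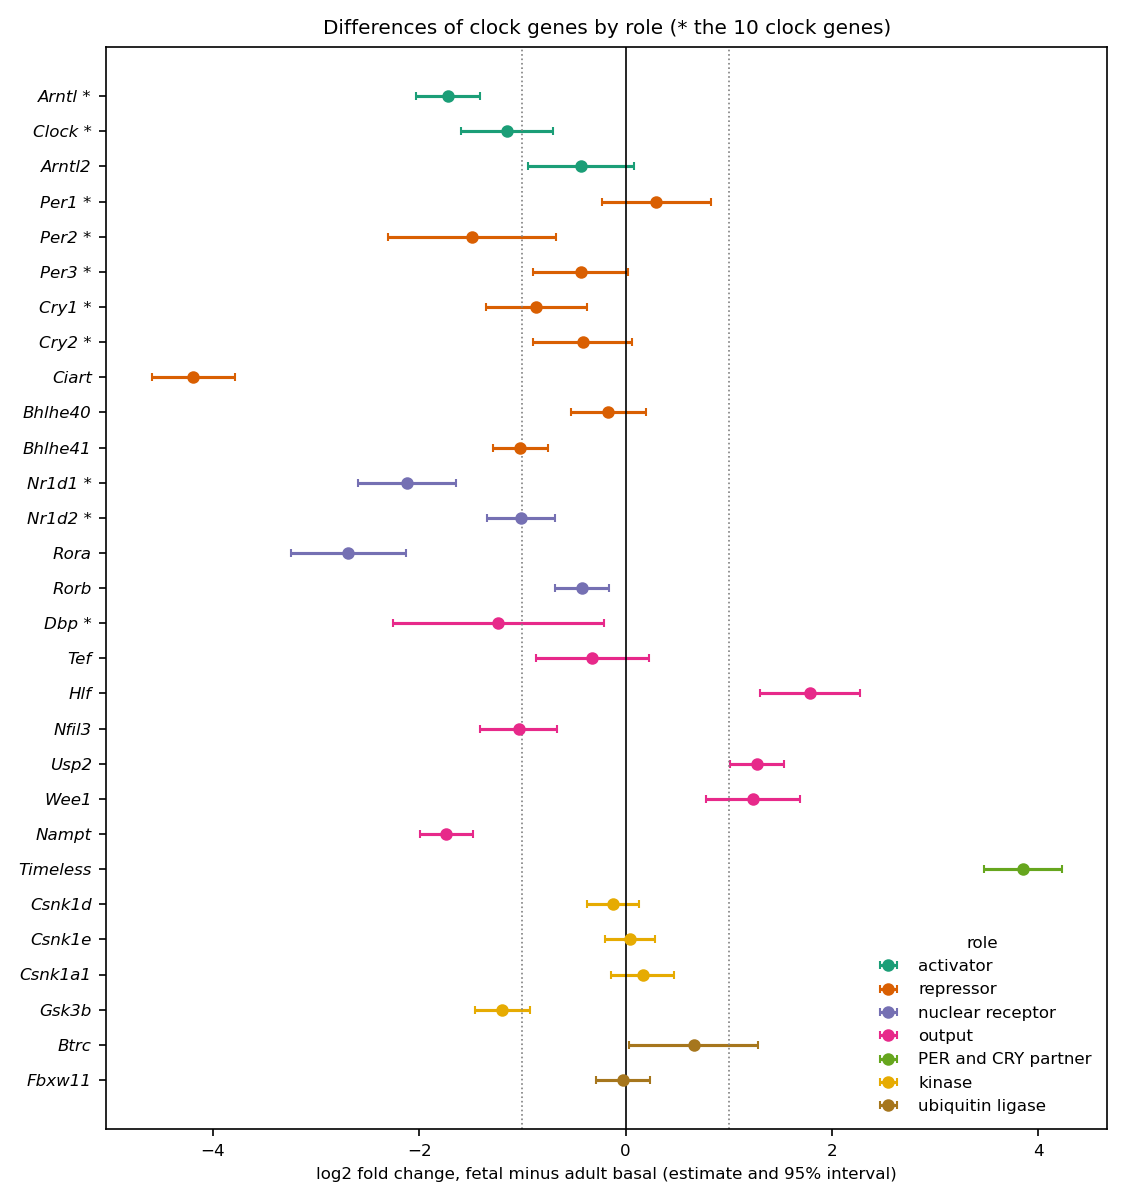
Log2 fold change, fetal minus adult basal (x axis, point and 95% interval from limma), of the 10 clock genes (starred) and genes of the wider list, colored by role. Dotted lines mark a 2-fold difference; Ciart at -4.19 and Timeless at 3.85 lie farthest out, and Csnk1d, Csnk1e and Fbxw11 lie nearest to 0.

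Ciart (also called CHRONO), which represses ARNTL and CLOCK and whose 3 E-boxes are printed above, had the largest difference of the wider list. It read 6.71, 6.74 and 7.21 in fetal and 10.98, 11.30 and 10.95 in adult basal cells. The difference was -4.19 (SE 0.17), or 18.2-fold, with a Holm-adjusted p of 6.9e-04. The lowest adult basal array for Ciart was replicate 3, not replicate 1. Nampt, the rate-limiting enzyme of NAD salvage, read 10.70, 10.65 and 10.63 in fetal and 12.23, 12.50 and 12.45 in adult basal cells. Its difference of -1.74 (SE 0.11; Holm-adjusted p = 0.014) missed the Holm limit under 7 of the 19 alternatives, where its Holm-adjusted p lay at up to 0.24.

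Timeless, a replication fork protein that also binds PER and CRY proteins, went the other way. It read 11.72, 11.70 and 11.95 in fetal and 7.97, 7.65 and 8.20 in adult basal cells, a difference of 3.85 (SE 0.16; Holm-adjusted p = 7.4e-04). Its second probe gave 4.07. The 8 proliferation genes measured beside it were Mki67, Top2a, Ccnb1, Cdk1, Mcm2, Pcna, Bub1 and Aurka. All 8 were higher in fetal cells by the Holm limit, beside 5.92% of all tested probes. The median difference of the 8 genes was 5.73, and the brightest, Pcna, differed by 1.92. Their summed linear signal was 96420, 103500 and 100900 in fetal and 12550, 11920 and 12420 in adult basal cells. The part of proliferation in the difference of Timeless was not tested.

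The nuclear receptor Rora, which activates Arntl, read 8.61, 8.61 and 8.42 in fetal and 10.68, 11.36 and 11.65 in adult basal cells. The difference was -2.69 (SE 0.24), with a Holm-adjusted p of 0.13 and a Benjamini-Hochberg adjusted p of 5.2e-05. Its Holm-adjusted p was 0.0129 without adult basal replicate 1, between 0.308 and 1 when any other array was left out, and between 0.0343 and 0.902 under the other settings with that adjustment. Rora, its antagonist Nr1d1 and their shared target Arntl therefore all had lower values on every fetal array than on any adult basal array. The paralog Rorb differed by -0.42.

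Genes outside the rule for naming, chosen after their values were seen, complete those that passed Benjamini-Hochberg adjustment and the fold limit. Bhlhe41 (DEC2), a competitor of ARNTL and CLOCK at E-boxes, differed by -1.02, Nfil3 (E4BP4), the repressor that binds D-boxes, by -1.04, and Gsk3b, a kinase of several clock proteins, by -1.19. Bhlhe41 fell short of the 2-fold limit under 4 of the 19 alternatives (to -0.95) and Nfil3 under 3 (to -0.96). Hlf, a D-box activator of the same family as DBP, differed by 1.78, the deubiquitinase gene Usp2 by 1.27 and the kinase gene Wee1 by 1.23, all 3 higher in fetal cells. The D-box activators thus did not share a direction, since Dbp was lower and Hlf higher in fetal cells, while Tef differed by -0.32 with overlapping populations.

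**Figure D5:**
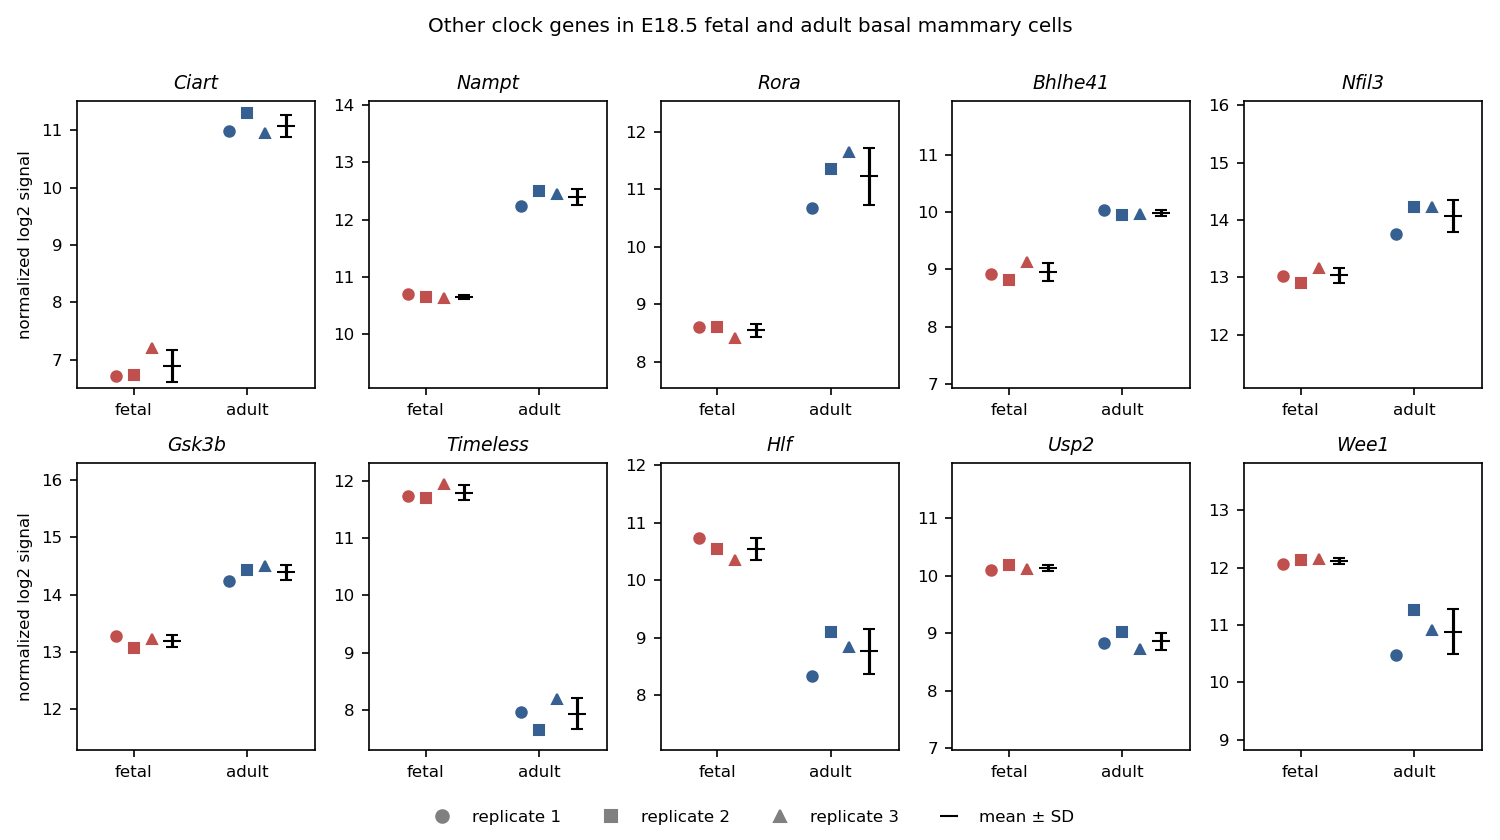
Normalized log2 signal (y axis, the same span of log2 units in each panel) of the 10 genes of the wider list that passed Benjamini-Hochberg adjustment and the fold limit, on 3 fetal and 3 adult basal arrays, with the mean ± SD in black. Ciart, Nampt, Rora, Bhlhe41, Nfil3 and Gsk3b are higher on all adult basal arrays, and Timeless, Hlf, Usp2 and Wee1 on all fetal arrays.

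By the brightest probe of each gene, the 3 smallest differences of the wider list were in enzymes that act on PER proteins. Casein kinases 1 delta and epsilon (Csnk1d and Csnk1e) phosphorylate PER proteins, and their differences were -0.12 (95% interval -0.38 to 0.13) and 0.041 (-0.20 to 0.28). A second Csnk1d probe gave -0.84, and the mean of the Csnk1d probes gave -0.48 (Benjamini-Hochberg adjusted p = 0.0046), so its place among the smallest rests on the choice of probe. Fbxw11, a subunit of a ubiquitin ligase that acts on PER proteins, differed by -0.026 (-0.28 to 0.23). Its paralog Btrc differed by 0.66 by the brighter probe and by 1.61 by the other. For Fbxl21, an F-box protein gene whose product targets CRY proteins, no adult basal array was well above background. Fbxl21 was at least 3.09-fold brighter in fetal cells by 1 probe and at least 1.19-fold by the other, which was well above background on 2 of the 3 fetal arrays, where the bound is the fetal mean over the lowest signal well above background on the adult basal arrays or the signal of the probe itself, whichever is higher. Both Fbxl21 probes and the probe of Npas2, a paralog of Clock, failed the filter on low signal and were not tested.

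Immediate early genes and glucocorticoid targets were read beside the clock genes. Of 9 immediate early genes, 1 passed the Holm limit (Fosb) and 6 passed Benjamini-Hochberg adjustment and the fold limit, all higher in fetal cells. Of all tested probes, 5.92% and 16% were higher in fetal cells by these limits. The median difference of the 9 genes was 1.34, which is also that of their brightest gene, Jun. Their summed linear signal lay between 203000 and 243000 on the fetal arrays and between 77560 and 91080 on the adult basal arrays. Of 5 glucocorticoid target genes, 0 passed Holm with limma, and 4 passed an unadjusted p under 0.05, as did 64.7% of all tested probes. With Benjamini-Hochberg adjustment and the fold limit, 2 of the 5 were higher in fetal cells, beside 16% of all tested probes. These were Sgk1, the brightest, by 1.52 and Fkbp5 by 1.04. Klf9, a glucocorticoid target that also follows the clock, differed by -0.89. The part of these genes' inducers in the values of Per1 and the other clock genes was not tested.

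Markers of the sorted populations and of other cell types were read on the same arrays. Of all tested probes, 5.18% were higher in adult basal and 5.92% in fetal cells by the Holm limit. With Benjamini-Hochberg adjustment and the fold limit these shares were 14.0% and 16%. Of 8 basal markers 6 were higher in adult basal cells by the Holm limit, with the brightest, Acta2, at -4.07, while Krt14 overlapped and Trp63 differed by -0.084. Of the 7 tested luminal markers 3 were higher in fetal cells by the Holm limit (Elf5, Kit and Pgr), and the brightest, Krt18, differed by 0.58. Krt19 was higher in adult basal cells, with a difference of -1.22 that passed Benjamini-Hochberg adjustment and the fold limit, Prlr differed by -0.35, and Esr1 failed the filter on low signal with every adult basal array above every fetal array. All 8 fibroblast markers had higher adult basal means, 1 by the Holm limit (Dcn, the brightest, at -3.78) and 3 with Benjamini-Hochberg adjustment and the fold limit. Their summed linear signal was 6270, 6457 and 7911 on the fetal and 17530, 21460 and 28070 on the adult basal arrays. All 6 leukocyte markers had higher adult basal means, 2 of them (Cd52 and Tyrobp) with Benjamini-Hochberg adjustment and the fold limit. The brightest, Cd3e, differed by -0.053, and the leukocyte sums lay between 4141 and 5060 on the fetal and between 5330 and 6340 on the adult basal arrays. Of 5 tested endothelial markers 3 passed Benjamini-Hochberg adjustment and the fold limit, all higher in adult basal cells, and the brightest, Kdr, differed by -0.043. The endothelial sums overlapped, at 10840 to 12610 on the fetal and 11280 to 13820 on the adult basal arrays. Of 5 adipocyte markers 0 passed either adjustment in limma, and 2 passed an unadjusted p under 0.05, as did 64.7% of all tested probes. The brightest adipocyte marker, Fabp4, differed by -1.21. The adipocyte sums were 1160, 1019 and 2484 on the fetal and 2116, 1949 and 2320 on the adult basal arrays. Of these 4 lists of other cell types, Tek reached a signal well above background on 0 of the 3 fetal arrays and Adipoq on 0 of the 3 adult basal arrays. In none of these 4 lists was the sum of adult basal replicate 1 the lowest on the adult basal arrays except for the fibroblast list, and the part of such cells in the clock gene values was not tested.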

How the data were processed

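RNA from 3 E18.5 fetal and 3 adult basal samples was hybridized to 6 Agilent SurePrint G3 Mouse GE arrays in 1 color. The authors extracted the spot intensity with Feature Extraction 11.0.1.1, which subtracts background within each array, and deposited it unnormalized. A table of log2 values that the authors quantile normalized was deposited as well, and served as an alternative. Its columns tracked the values normalized here from the scanner signal of the arrays they are labelled with. The r over probes was 0.998 or more, with the mean of each probe over the 6 arrays subtracted first. The medians of its columns lay between 7.106 and 7.107. The methods and the labels of the samples name different labelling kits.

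Here, processed signal was put on the log2 scale, between 104 and 326 outlier spots per array were left out, the mean over spots of a probe was taken, and quantile normalization was run over the 6 arrays. Accessions of probes were looked up without version to a RefSeq gene table (GRCm38.p6; the array design names another build), which matched 48.9% of 55681 probes. Probes below a k-means cutoff (3 clusters, 100 starts, seed 1) of 5.95 in both populations were removed. The filter is modelled on that of the study, but its cutoff was set here on the matched probes, and the cutoff of the study was an alternative. The other 20445 entered limma 3.58.1 (lmFit, eBayes; R 4.3.3), and a call needed both a Holm-adjusted p up to 0.05 and a log2 difference of 1 or more in size. The fit was tested on simulated data. A gene's main probe is the brightest. Plots were drawn with matplotlib 3.10.9 in Python 3.11.15. The precision is limited by 3 arrays per population.

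The members, the lists and the alternatives were chosen with earlier results of these data known. Named were all 10 members and, of the wider list, the genes called, the 3 with the largest and the 3 with the smallest difference and any not above background. For the other lists, counts and the brightest gene are given. Some genes of the wider list enter its counts but are not reported here. The 19 alternatives were other normalizations, background corrections, offsets, filters, adjustments, variance models, blocks and probe rules, and each array left out. The Benjamini-Hochberg count under each of these, and the count of higher means, were added after seeing the data.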

Additional observations from a re-analysis of the deposited data

How the results depend on the processing

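Over 19 alternatives, 9 of the 10 clock genes had the higher mean in adult basal cells each time, and 0 were called higher in fetal cells. In the main fit 51.8% of all tested probes had the higher mean in adult basal cells. The number called higher in adult basal cells, 0 with Holm adjustment, was 1 with the 75th percentile, normexp, the offset of 16 and averaged probes of a gene, 2 with a trend and robust estimation, and 6 with Benjamini-Hochberg adjustment. The cause was not tested. The gene gained was Arntl, with Holm-adjusted p-values of 0.041, 0.032, 0.017, 0.0453 and 0.0065 in that order, joined by Nr1d1 (0.0355) under the last of these. With an array left out, 0 passed the Holm limit. With Benjamini-Hochberg adjustment the count ran from 3 to 7 when each array was left out. Dbp, with the largest spread, missed the limit of 0.05 with no filter (0.0763), with all probes (0.0524), with a trend (0.0809) and in 5 of the fits without an array (0.0792 to 0.117). Nr1d2 fell short of the fold limit with normexp, the offset and 3 arrays left out in turn (-0.99 to -0.92), and Clock without adult basal replicate 2 (-0.96). In the wider list, Ciart and Timeless were called throughout. Its count higher in fetal cells was 1, and 2 with normexp, the offset or a trend, and 4 with Benjamini-Hochberg adjustment. Its count higher in adult basal cells was 2, and 1 with no filter, the replicate block or the slide block, 3 with normexp or the offset, where Rora passed the Holm limit (0.0343 and 0.0375), 4 with a trend, 6 with Benjamini-Hochberg adjustment, and 1 to 3 without an array. Csnk1e turned to -0.032 with normexp and ran from -0.024 (without adult basal replicate 1) to 0.075 without an array, and Fbxw11 from -0.104 to 0.036 (without adult basal replicate 3).

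Of all tested probes, 1210 were called higher in fetal and 1060 in adult basal cells. These counts were 619 and 563 with no filter, 3267 and 2866 with Benjamini-Hochberg adjustment, and 695 and 608 with the replicate block. With a trend, 1765 were higher in fetal and 1592 in adult basal cells, and with the slide block 802 and 740. Without an array they ran from 495 to 1046 and from 430 to 940. Deviations of samples with the same replicate number had correlations of -0.032, 0.093 and 0.049. Those of samples with different numbers lay between -0.13 and 0.12. With 3 arrays per population these values cannot show whether the numbers pair the samples. The replicate block left the count of clock genes at 0 and the Benjamini-Hochberg count at 6. All probes of the 10 genes were well above background on all 6 arrays, and why 0 of them passed the Holm limit was not tested.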
